A study of Homo sapiens with 11 samples.

Results

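miR-31 is a microRNA (miRNA) processed from a single hairpin at chromosome band 9p21, and both of its mature arms, hsa-miR-31-5p and hsa-miR-31-3p, were followed across human tumour-derived cell lines. Its 2 mature names were chosen by exact name from 2588 mature miRNAs in the small RNA-seq tables, with their levels and arm shares already known, so those values are given as a description without any test. The study profiled miRNAs to find which of them could act on mRNAs in each line. Small RNA was sequenced from untreated parental cells of a lung (A-549), an ovarian (ES-2), a pancreatic (PANC-1) and a liver cancer (Hep-G2), of a melanoma (MV3) and of a neuroblastoma (BE(2)-C). PANC-1 had 1 biological replicate and the remaining 5 lines had 2, for 11 libraries in all. No line received an siRNA, and RNA was isolated with TRIzol. BE(2)-C grew in a mix of EMEM with DMEM/F12 and all other lines in DMEM, each with foetal bovine serum. Harvest followed 48 h after seeding, except that the protocol gives 24 h for BE(2)-C while its sample label gives 48 h. BE(2)-C and Hep-G2 libraries came from the provider Novogene, and the other 4 lines were prepared from 50 ng of RNA by the NEXTflex small RNA kit. The sequencer and the read length changed with the preparation. Each line is an established culture, so differences between lines are differences between these cultures and not between tumour types.

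A miRNA hairpin is cut into a duplex whose strands are called 5p and 3p after the arm they come from. Usually 1 strand is retained in an Argonaute protein and directs it to mRNAs through its seed (bases 2 to 8), while the other is degraded. miR-31 is known as a repressor of metastasis in breast cancer, and it is raised in other tumours such as colorectal cancer. Its locus lies beside the tumour suppressor CDKN2A, in a region that is often deleted in tumours. DNA copy number was not analysed here.

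The MIR31 hairpin is at chr9:21512115-21512185 on the minus strand (GRCh38). It lies in an intron of the long non-coding RNA gene MIR31HG (ENSG00000171889.7, chr9:21380073-21559891, minus strand), since none of the 21 transcripts that span it has an exon over the hairpin. The interferon gene IFNE is 29802 bp away, MTAP, which encodes a methionine salvage enzyme, 290451 bp, and CDKN2A 455567 bp. The nearest miRNA hairpin is MIR491 at 795927 bp. Each table listed each arm on 1 row, so that reads of miR-31 were not divided over genomic copies.

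The mature sequence of the abundant arm is shown because its seed tells whether another measured miRNA could act on the same sites. Below it stands the closest other miRNA by seed, with the seed of each in capitals (RefSeq, GRCh38.p14):
hsa-miR-31-5p: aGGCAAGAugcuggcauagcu
hsa-miR-6809-5p: uGGCAAGGaaagaagaggauca
The 5p arm occupies chr9:21512158-21512178 of the minus strand, is 21 bases long and holds 11 G or C bases. A RefSeq sequence was matched to 2281 of the 2588 names, and 0 of the 2370 mature names in that table shared bases 2 to 8 with miR-31-5p. hsa-miR-6809-5p, from chromosome 2, shared bases 2 to 7 and was the only such name. It was read only in BE(2)-C replicate 2, at 0.306 CPM. Among the names with a sequence, miR-31-5p thus had its seed to itself.

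miR-31-5p was among the abundant miRNAs of A-549, MV3, ES-2 and PANC-1, and it was almost absent from BE(2)-C and Hep-G2. Levels are in CPM, the reads of a miRNA in 1000000 reads assigned to all listed miRNAs of that library. The libraries held 1173902 to 12137452 such reads, with a median of 2670030. A level based on 3 reads, used as the floor for a count of 0, was therefore 2.56 CPM in the shallowest library (MV3 replicate 1) and 0.247 CPM in the deepest (Hep-G2 replicate 2). Intervals below are 95% intervals of counting error only. They leave out the spread between cultures, and PCR copies were not told apart by molecular identifiers. CPM compares a miRNA with the rest of its library and cannot tell fewer molecules in each cell from more of another miRNA.

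In A-549, miR-31-5p was represented by 24793 reads in replicate 1 and 17347 in replicate 2, which is 9286 CPM and 8418 CPM. It ranked 11 and 13 of the miRNAs in these libraries and reached 0.929% and 0.842% of all miRNA reads. The mean was 8852 CPM ± 613 (SD, n = 2), the highest level of the 6 lines.

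In MV3, its levels were 4698 CPM from 5515 reads and 5536 CPM from 8577 reads, a mean of 5117 CPM ± 593 (SD, n = 2), with rank 27 in both libraries. In ES-2, they were 2750 CPM from 4574 reads and 2710 CPM from 6219 reads, a mean of 2730 CPM ± 28.5 (SD, n = 2), with rank 32 in both libraries. The PANC-1 library had 24949 reads, which is 2560 CPM (2528 to 2592) at rank 46. The libraries of A-549, MV3 and ES-2 did not overlap in CPM, and PANC-1 was just below both ES-2 libraries.

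BE(2)-C replicate 1 held 38 reads of miR-31-5p, 5.05 CPM (3.58 to 6.94, exact Poisson interval), and replicate 2 held 1 read, 0.153 CPM (0.00387 to 0.852). Hep-G2 had 5 and 6 reads in its 2 libraries, 0.421 CPM (0.137 to 0.982) and 0.494 CPM (0.181 to 1.08). The means were 2.60 CPM ± 3.46 (SD, n = 2) for BE(2)-C and 0.458 CPM ± 0.052 (SD, n = 2) for Hep-G2. The BE(2)-C libraries lay on either side of both Hep-G2 libraries, so these neighbours in the order did not differ beyond their spread. The Hep-G2 libraries were the deepest of the series, and BE(2)-C replicate 2 was under its floor of 0.459 CPM.

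**Figure D1:**
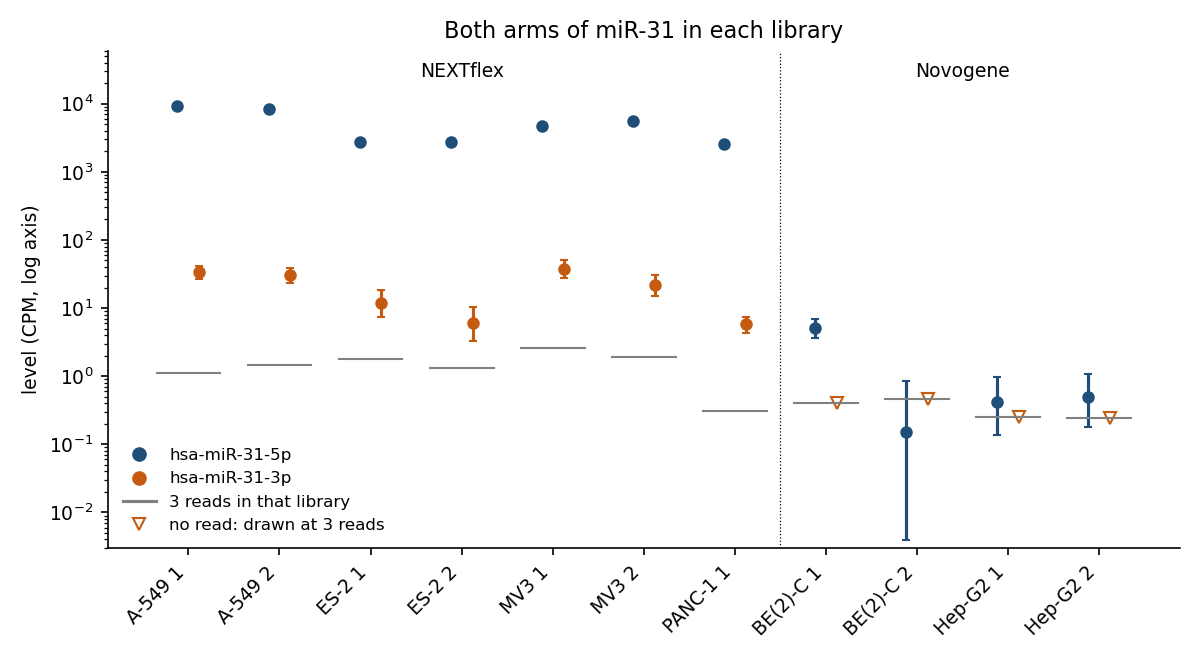
Levels of hsa-miR-31-5p (blue) and hsa-miR-31-3p (orange) in CPM on a log axis for each of the 11 libraries, with 95% Poisson intervals and, in grey, the level of 3 reads. The 7 NEXTflex libraries have 2560 to 9286 CPM of the 5p arm, and the 4 Novogene libraries 0.153 to 5.05 CPM, with no read of the 3p arm (open triangles).

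The distance between the high and the low lines was far larger than any difference among the high ones. A-549 exceeded MV3 by 1.73-fold, ES-2 by 3.24-fold and PANC-1 by 3.46-fold in mean CPM. With the reads of each line pooled, A-549 was 19450-fold above Hep-G2 (10870 to 38963) and 3212-fold above BE(2)-C (2349 to 4516). PANC-1, the lowest of the high lines, was 5589-fold above Hep-G2 (3124 to 11196) and 923-fold above BE(2)-C (675 to 1298). These intervals cover only the counting error of the low line's pooled reads, and not the difference between its replicates. The BE(2)-C folds rest on 38 reads of replicate 1 and, without it, were 58257-fold for A-549 (10456 to 2301047) and 16741-fold for PANC-1 (3005 to 661220) from 1 read. The lowest NEXTflex library, PANC-1, was 507-fold above the highest Novogene library, BE(2)-C replicate 1, and 5178-fold above the highest of the other Novogene libraries. All high lines were prepared with the NEXTflex kit and all low lines by Novogene, so the preparation and the cell lines cannot be told apart for this step.

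The order within the high and within the low lines depended on the scale. With TMM factors (scaling factors that centre most miRNAs between libraries), the means were 8365 CPM in A-549, 2765 in MV3, 2067 in ES-2, 1451 in PANC-1, 2.40 in Hep-G2 and 1.79 in BE(2)-C, so that Hep-G2 passed BE(2)-C. The TMM factors of the Hep-G2 libraries were 0.166 and 0.217, against 1.02 to 1.87 in the other lines. With the most abundant miRNA of each library taken out of the total, A-549 had 25027 CPM, MV3 7591, PANC-1 3851, ES-2 3773, BE(2)-C 2.95 and Hep-G2 1.75, and PANC-1 passed ES-2. A-549 was first and MV3 second of the 6 lines on each of the 4 scales used, which also include the deposited values. That most abundant miRNA was miR-21-5p in all 7 NEXTflex libraries, at 58.0 to 131 times the CPM of miR-31-5p. In Novogene libraries it was miR-381-3p in BE(2)-C and miR-148a-3p in Hep-G2.

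**Figure D2:**
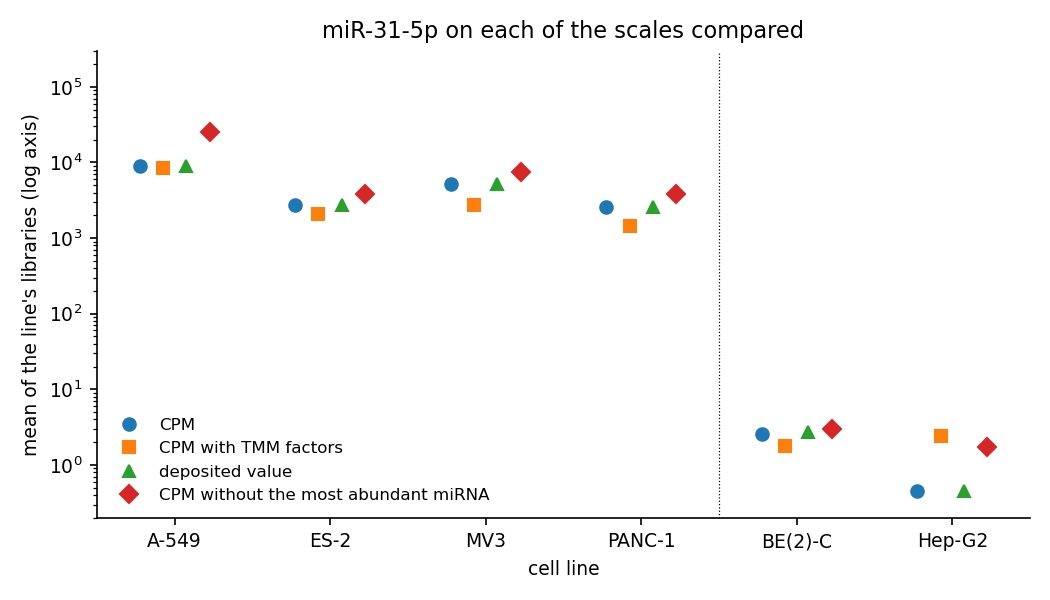
Mean level of hsa-miR-31-5p in the libraries of each line on a log axis, as CPM, CPM with TMM factors, deposited value and CPM without the most abundant miRNA. A-549 is highest on each scale (8365 to 25027), and BE(2)-C and Hep-G2 stay between 0.456 and 2.95, with their order turned by TMM factors.

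Replicates of A-549 and ES-2 agreed about as closely for miR-31-5p as for other abundant miRNAs, and those of MV3 less closely. The absolute log2 ratio of the replicates was 0.14 (A-549), 0.02 (ES-2) and 0.24 (MV3), where the medians over miRNAs whose line mean reached 1000 CPM were 0.11, 0.05 and 0.11. In MV3, 6 of 61 such miRNAs had a larger ratio than miR-31-5p, against 19 of 49 in A-549 and 54 of 61 in ES-2.

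The BE(2)-C replicates stood apart, with miR-31-5p 33.0-fold higher in replicate 1 than in replicate 2. Of 479 miRNAs with at least 38 reads in replicate 1, the liver miRNA miR-122-5p (823 CPM against 5.96) and miR-184 (543 against 10.1) had at least this ratio, and 5 including miR-31-5p were over 10-fold. The other members of that group were miR-15b-3p (124 CPM against 5.66) and miR-221-3p (9.31 against 0.459). The filter used replicate 1 alone and left out miRNAs with fewer reads there, so it favours ratios above 1. That 0 of the 479 were under 0.1-fold therefore does not show a difference of the replicates in 1 direction. The 3 liver markers (miR-122-5p, miR-192-5p and miR-194-5p) summed to 2271 CPM in replicate 1 and 842 CPM in replicate 2, with all 3 read in both. miR-194-5p alone of them was lower in replicate 1 (160 CPM against 258). In BE(2)-C, the red cell marker miR-451a led the blood markers, with 299 and 46.0 CPM. With miR-142-3p and miR-223-3p the sums were 301 and 46.5 CPM, and miR-223-3p was at 0 in replicate 2. ES-2 had blood sums of 326 and 286 CPM, nearly all from miR-142-3p. Whether the miRNAs named here for BE(2)-C had a part in its 38 reads of miR-31-5p was not tested.

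Other markers bear on the labels of the lines. The neural markers (miR-124-3p, miR-9-5p and miR-218-5p) summed to 84656 and 105820 CPM in BE(2)-C and to at most 2035 CPM elsewhere. Hep-G2 had the highest liver sum, 15835 and 16456 CPM, against 4762 and 4486 CPM in A-549. Nearly all of the Hep-G2 sum came from miR-192-5p, with a mean of 15859 CPM. By contrast, miR-194-5p was higher in A-549 (1891 CPM) than in Hep-G2 (230 CPM). miR-122-5p was at 57.0 CPM in Hep-G2 and highest in BE(2)-C replicate 1 (823 CPM). In MV3, the melanocytic markers miR-211-5p, miR-204-5p and miR-146a-5p summed to 601 and 704 CPM, nearly all from miR-146a-5p (599 and 703 CPM). There miR-211-5p was at 0 and miR-204-5p at 1.70 and 1.29 CPM. The highest melanocytic sum was that of PANC-1, 1273 CPM, all from miR-146a-5p. The highest levels of miR-204-5p were those of BE(2)-C, 70.2 and 41.0 CPM. Of the pancreatic markers, PANC-1 had 26.8 CPM of miR-375 and no read of miR-216a-5p or miR-217. BE(2)-C had far more miR-375, 6373 and 4866 CPM. The epithelial markers (miR-200c-3p, miR-141-3p and miR-200b-3p) summed to 828 and 895 CPM in A-549, 1303 and 1352 CPM in Hep-G2, 129 CPM in PANC-1 and at most 54.2 CPM in the other lines, with miR-141-3p at most 4.79 CPM in any library.

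miR-31-5p was not the only miRNA that separated the preparations, but its step was the largest in CPM. Of 320 miRNAs with at least 100 CPM in a library, 64 (20.0%) had every NEXTflex library above every Novogene library, and 20 (6.25%) the reverse. The gap between the lowest NEXTflex and the highest Novogene library was at least 10-fold for 17 miRNAs and at least 100-fold for miR-31-5p alone. Next came miR-29b-1-5p with 77.8-fold (95.1 against 1.22 CPM), miR-193a-5p with 39.5-fold, miR-30c-2-3p with 36.2-fold and miR-30a-5p with 27.6-fold.

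At a level of at least 1000 CPM in each NEXTflex library there were 38 miRNAs, of which miR-31-5p was the only name under 10 CPM in each Novogene library. This held with TMM factors (35 miRNAs), deposited values (38) and the most abundant miRNA left out of the total (49). The next lowest in Novogene libraries was miR-10a-5p, with a highest value of 99.3 CPM, followed by miR-221-3p (179 CPM), miR-222-3p (311 CPM) and miR-100-5p (391 CPM). With the lower limit set at 100 CPM, 2 of 99 miRNAs had the pattern, miR-31-5p and miR-30c-2-3p. At that limit the companions of miR-31-5p depended on the scale. With TMM factors, let-7d-3p took the place of miR-30c-2-3p (2 of 87). Without the most abundant miRNA in the total, miR-29b-1-5p joined them (3 of 117). Those limits were chosen with the levels of miR-31-5p known.

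**Figure D3:**
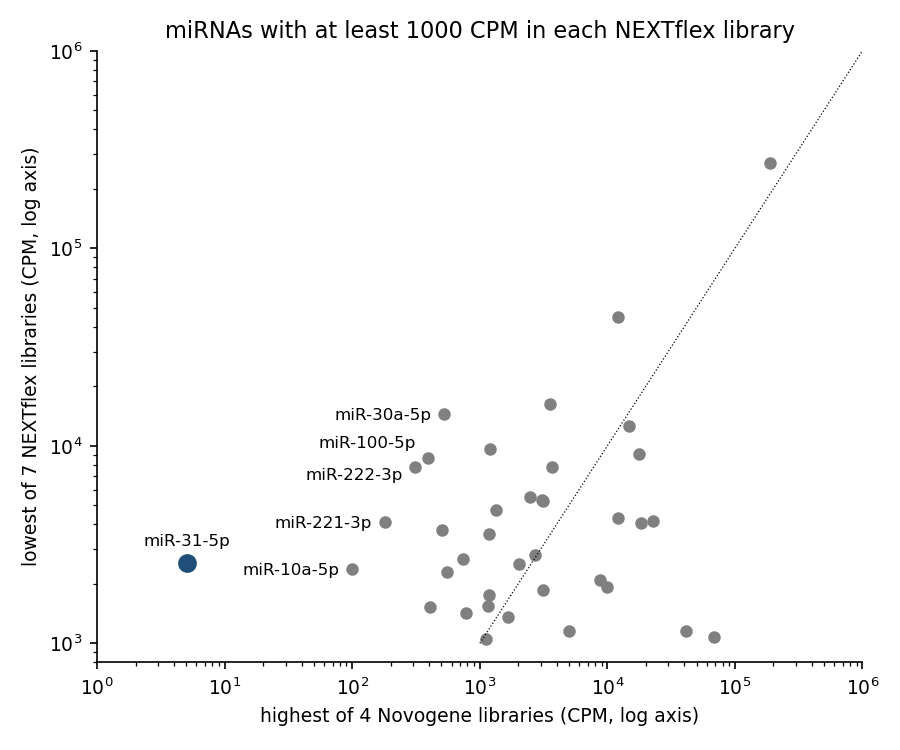
The 38 miRNAs with at least 1000 CPM in each of the 7 NEXTflex libraries, by their highest level in the 4 Novogene libraries (horizontal, CPM, log axis) and their lowest level in the NEXTflex libraries (vertical, CPM, log axis), with a dotted line of equal levels. miR-31-5p (blue) lies at 5.05 and 2560 CPM, and miR-10a-5p, the next from the left, at 99.3 and 2376 CPM.

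The 3p arm was detected in the 4 lines in which the 5p arm was abundant, at far lower levels. Replicates of A-549 had 33.7 and 30.1 CPM of miR-31-3p from 90 and 62 reads, and those of MV3 had 37.5 and 21.9 CPM from 44 and 34 reads. The ES-2 libraries had 12.0 and 6.10 CPM from 20 and 14 reads, and the PANC-1 library 5.75 CPM from 56 reads. The means were 31.9 CPM ± 2.56 (A-549), 29.7 CPM ± 10.99 (MV3) and 9.06 CPM ± 4.19 (ES-2; SD, n = 2 each). A-549 and MV3 overlapped, and PANC-1 was within the counting interval of ES-2 replicate 2 (3.34 to 10.2 CPM). Every A-549 and MV3 library was above every ES-2 and PANC-1 library, although the counting intervals of MV3 replicate 2 (15.2 to 30.7 CPM) and ES-2 replicate 1 (7.35 to 18.6 CPM) overlapped.

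No read of miR-31-3p was found in the 4 Novogene libraries, where 3 reads would be 0.247 to 0.459 CPM. The PANC-1 level was 12.5-fold above the highest of these floors, taken per library and with counting error left out.

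miR-31 was a strongly 5p-dominant hairpin wherever its arms could be counted. The 3p share of its reads was 0.362% (95% Wilson interval 0.294 to 0.444) and 0.356% (0.278 to 0.456) in A-549. It was 0.435% (0.282 to 0.672) and 0.225% (0.134 to 0.377) in ES-2, 0.792% (0.590 to 1.06) and 0.395% (0.283 to 0.551) in MV3 and 0.224% (0.173 to 0.291) in PANC-1. Between 125 and 446 reads of the 5p arm were thus found for each read of the 3p arm. MV3 replicate 1 was the highest, and its interval overlapped that of ES-2 replicate 1 but not those of the other 5 libraries, MV3 replicate 2 included. The means of A-549 (0.359%), ES-2 (0.330%) and PANC-1 differed by less than the distance between the MV3 replicates.

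The share could not be read in the Novogene libraries. BE(2)-C replicate 1 had 0 reads of the 3p arm among 38, which allows a share of up to 7.89%, and at the highest share seen elsewhere 38 reads would hold 0.301 reads of it. The other Novogene libraries had 1 to 6 reads of miR-31 in all. In BE(2)-C replicate 1, a change of arm use that kept the 3p share within 7.89% was therefore not detectable. In BE(2)-C replicate 2 and Hep-G2 the reads were too few to judge arm use.

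**Figure D4:**
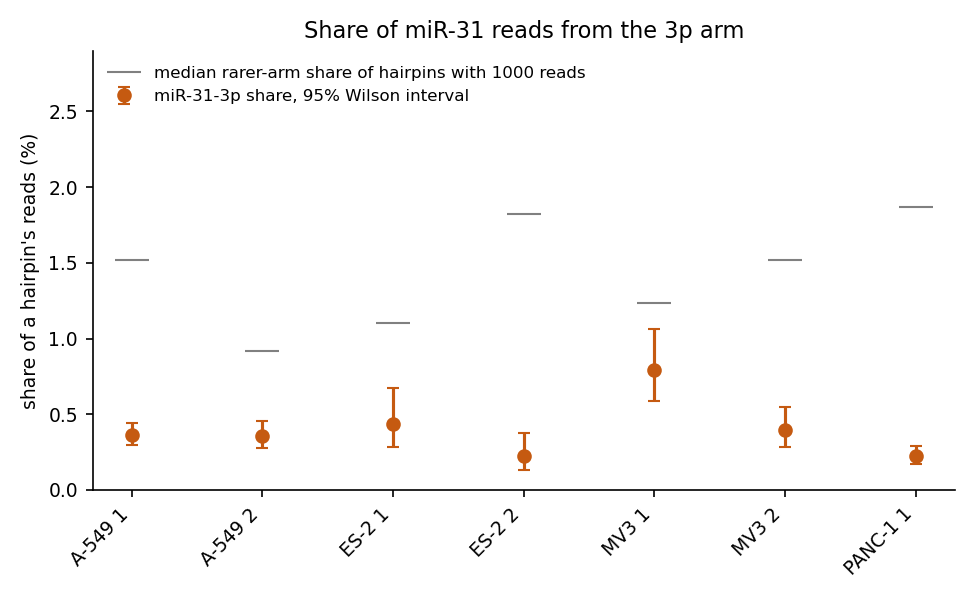
Share of miR-31 reads from the 3p arm, in percent of the reads of both arms, for the 7 NEXTflex libraries, with 95% Wilson intervals (orange), and the median share of the rarer arm over hairpins with at least 1000 reads in the same library (grey). The miR-31 shares lie between 0.224% and 0.792% and are below the median in each library, where it is 0.915% to 1.87%.

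Among hairpins with at least 1000 reads in a library (53 to 127 hairpins), 23.3% to 36.5% had a smaller share of the rarer arm than miR-31, and the 5p arm was the major one in 52.0% to 65.6%. The 5 hairpins nearest to miR-31 in A-549 in summed CPM gave very different shares of 3p reads. Their medians over the 7 NEXTflex libraries were 0.041% for miR-30d, 0.0653% for miR-100, 1.49% for miR-125a, 69.3% for miR-423 and 99.9% for miR-222, beside 0.362% for miR-31. The dominance of the 5p arm of miR-31 was thus between that of miR-100 and that of miR-125a.

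The other miRNA hairpins on this stretch of chromosome 9 did not share the levels of miR-31. Within 25 Mb of MIR31 lie 18 further hairpins with 26 mature names in the tables, 19 of which were read in at least 1 library. Their sequences are shown for the nearest hairpin and for the most abundant one on the centromeric side, with seeds in capitals (RefSeq, GRCh38.p14):
hsa-miR-491-5p: aGUGGGGAacccuuccaugagg
hsa-miR-873-3p: gGAGACUGaugaguucccggga
hsa-miR-873-5p: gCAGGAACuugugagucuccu
These lie at chr9:20716120-20716141 (plus strand), chr9:28888889-28888910 and chr9:28888925-28888945 (both minus strand). miR-491-5p had 2.25 and 2.43 CPM in A-549, 4.81 and 0 in ES-2, 0 and 3.23 in MV3, 0 in PANC-1, 3.59 and 2.45 in BE(2)-C, and 0.337 and 0.412 in Hep-G2. It was thus at most 4.81 CPM in any library, also where miR-31-5p was abundant.

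miR-873 was read chiefly in BE(2)-C, a line almost without miR-31. miR-873-3p had 118 and 88.8 CPM in the BE(2)-C replicates, 0 in both Hep-G2 libraries and at most 1.20 CPM in the NEXTflex libraries. miR-873-5p had 28.6 and 39.4 CPM in BE(2)-C, 0 in Hep-G2 and at most 1.31 CPM in the NEXTflex libraries. The hairpin next to it, miR-876, gave 5.98 and 9.17 CPM of its 3p arm in BE(2)-C and 0 in Hep-G2. Between BE(2)-C and Hep-G2, which share the preparation, limma gave log2 differences on the log2(CPM + 1) scale of 6.69 ± 0.36 (SE, adjusted p = 9.19e-07) for miR-873-3p and 5.11 ± 0.43 (SE, adjusted p = 1.11e-05) for miR-873-5p. With Hep-G2 at 0, their size depends on the 1 CPM added. On the recovered reads the alternatives differed. DESeq2 did not call them, with adjusted p = 0.0677 and 0.0858, and edgeR did, with adjusted p = 3.48e-05 and 0.000512.

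miR-3152, on the telomeric side, was read only in ES-2 (30.7 and 16.1 CPM of the 5p arm) and MV3 (15.3 and 16.1 CPM). Its 5p arm was lower in A-549 than in ES-2 by a log2 difference of -4.54 (adjusted p = 1.40e-05, limma) and than in MV3 by -4.06 (adjusted p = 2.82e-05, limma). A-549 was at 0 here. By DESeq2 the adjusted p were 0.0736 and 0.132, and by edgeR 0.000676 and 0.00319. miR-101-3p, which also has a copy on another chromosome, was the only abundant neighbour, at 516 CPM in PANC-1 to 5719 CPM in BE(2)-C replicate 1. It was 2.70 higher in BE(2)-C than in Hep-G2 on the log2(CPM + 1) scale (adjusted p = 1.07e-06, limma), a direction that turned with TMM factors (-0.31), edgeR (-0.55) and DESeq2 (-0.45).

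PANC-1 had no read at all from the hairpins closest to MIR31. Within 10 Mb, a window chosen after the values were seen, 6 hairpins give 11 mature names, and 0 of them were read in PANC-1 although 3 reads there are 0.308 CPM. The other libraries read 2 to 8 of these names with 8 to 1294 reads. Over all 2588 names, 24.8% were read in PANC-1, which was within the 23.5% to 28.0% of the other NEXTflex libraries. miR-31-5p, in the middle of this window, had 24949 reads in that library.

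**Figure D5:**
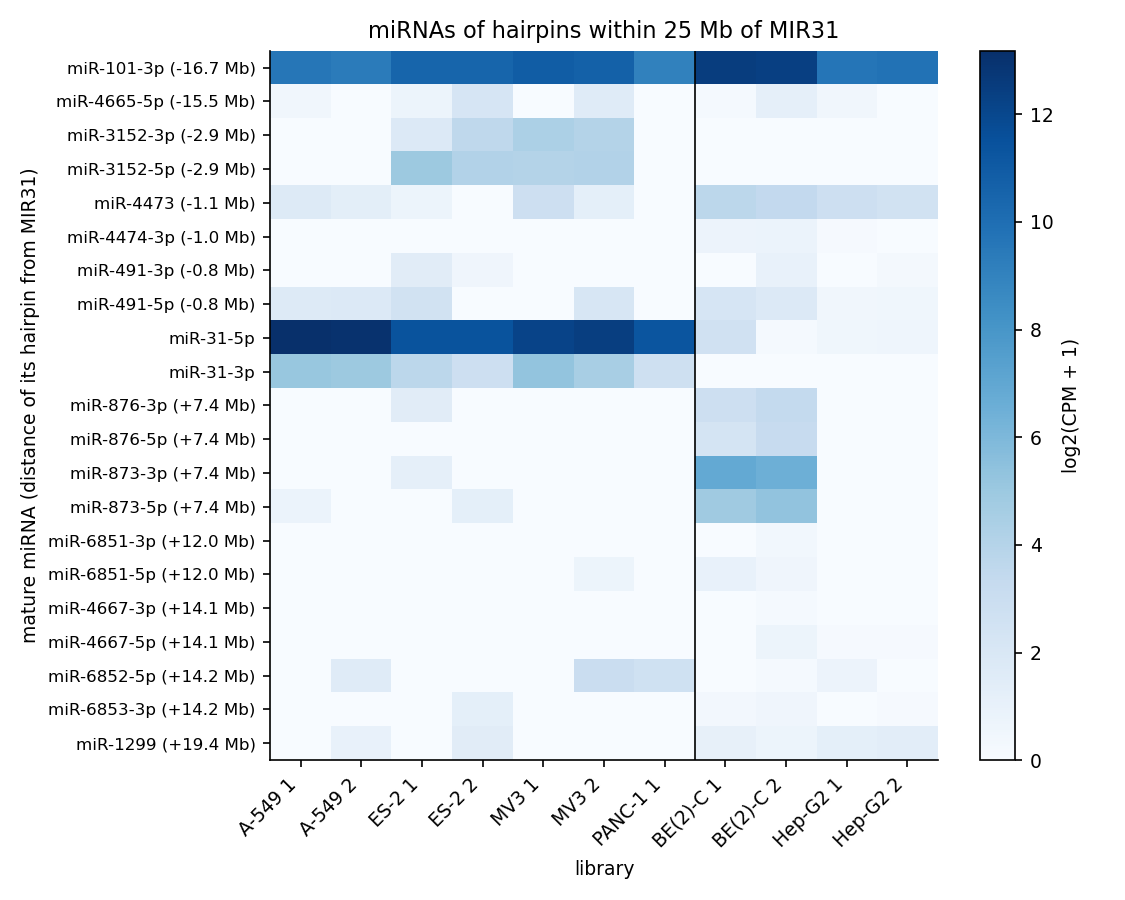
Levels, as log2(CPM + 1), of both miR-31 arms and of the 19 other mature miRNAs read from hairpins within 25 Mb of MIR31, ordered by distance along the chromosome, in the 11 libraries (NEXTflex left of the black line). miR-31-5p is dark in all NEXTflex libraries, miR-873 is seen in BE(2)-C, with 88.8 and 118 CPM of its 3p arm, and miR-3152 in ES-2 and MV3.

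Tests across lines, by limma on log2(CPM + 1) with Benjamini-Hochberg adjustment, covered the 546 miRNAs whose mean reached 10 CPM in some line. Nearly all of them varied, since the F test over the 6 lines called 99.3% and that over the 4 NEXTflex lines 85.4% of 453. Of the neighbours of MIR31, 6 were tested and all 6 were called over the 6 lines, and 3 of 3 over the NEXTflex lines. At these background shares the counts say nothing particular of the neighbours.

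The miRNAs most like miR-31-5p over the 6 line means of log2(CPM + 1) are given as a description, because the points share preparation and scaling. Of 313 candidates whose mean reached 100 CPM in some line, 28 had a Pearson r over 0.9, and the median r was 0.129. The 10 highest were miR-30c-2-3p (r = 0.982), miR-22-3p (0.973), miR-23a-5p (0.970), miR-30a-3p (0.963), miR-30a-5p (0.960), miR-21-3p (0.960), let-7d-5p (0.955), miR-151a-5p (0.954), miR-423-5p (0.950) and let-7e-5p (0.948). The 3p arm of miR-31 itself had r = 0.953.

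All 10 were higher in the NEXTflex than in the Novogene lines, but they differed in order among the NEXTflex lines. The first 2 of this list are shown beside the sequence of miR-31-5p given above because their seeds differ from it (RefSeq, GRCh38.p14, chr6:71376964-71376985 and chr17:1713914-1713935, both minus strand):
hsa-miR-30c-2-3p: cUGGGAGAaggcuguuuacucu
hsa-miR-22-3p: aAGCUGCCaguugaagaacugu
miR-30c-2-3p had 133 CPM in A-549, 201 CPM in ES-2, 145 CPM in MV3 and 153 CPM in PANC-1, against 2.49 CPM (BE(2)-C) and 0.207 CPM (Hep-G2). miR-22-3p had 568 to 1480 CPM in the NEXTflex lines and 93.0 and 48.6 CPM in BE(2)-C and Hep-G2. Within the 4 NEXTflex lines, r with miR-31-5p ran from -0.864 for let-7d-5p to 0.835 for miR-21-3p over these 10 miRNAs, whereas miR-31-3p had 0.933. Of the 10 names, 9 were shared with the list made over the 11 libraries, 6 with that made with TMM factors and 2 with the 16 names that Spearman's rho put first.

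miR-31 is often discussed with other miRNAs linked to metastasis, and 17 of these were compared from a list drawn up from general knowledge. A total of 16 were read and 14 tested, and all 14 were called over the 6 lines (99.3% of all miRNAs tested) and over the 4 NEXTflex lines (85.4%). Between A-549 and ES-2, 5 were higher in A-549 and 6 in ES-2, where 23.6% and 26.9% of all miRNAs tested were called in these directions. Between A-549 and MV3 the counts were 6 and 7, against 20.0% and 37.4%. Between ES-2 and MV3 they were 1 and 4, against 8.97% and 23.8%, and between BE(2)-C and Hep-G2 7 and 7, against 74.7% and 8.24%. The median log2 difference of the list was -0.74, -0.88, 0.12 and 0.05 in these contrasts, and that of all miRNAs tested -0.17, -0.47, -0.36 and 2.79.

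Scaling moved the direction of calls. On CPM, all miRNAs called were split into 109 higher in A-549 and 204 in MV3, 49 in ES-2 and 130 in MV3, and 408 in BE(2)-C and 45 in Hep-G2. With TMM factors these splits were 147 and 115, 70 and 78, and 226 and 125. Between A-549 and ES-2, 129 and 147 became 142 and 116 with TMM factors and 154 and 76 by DESeq2. Of the metastasis-linked miRNAs, miR-103a-3p and miR-107 turned direction with TMM factors between BE(2)-C and Hep-G2.

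None of the miRNAs named from this list followed the order of miR-31-5p, with its high level in A-549 and a lower one in ES-2, MV3 and PANC-1, down to almost nothing in BE(2)-C and Hep-G2. miR-222-3p, which represses the cell cycle inhibitor p27, had 8733 CPM in A-549, close to miR-31-5p, but 56476 in ES-2, 45066 in MV3 and 7784 in PANC-1, beside 5.27 in BE(2)-C and 276 in Hep-G2. It was lower in A-549 than in ES-2 by a log2 difference of -2.69 (adjusted p = 0.00627, limma) and lower in BE(2)-C than in Hep-G2 by -5.84 (adjusted p = 3.75e-05, limma). miR-155-5p, known from inflammation and lymphoid cells, had 23.0 CPM in A-549 and 7927 in ES-2, a log2 difference of -8.37 (adjusted p = 5.58e-07, limma).

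miR-21-5p, the most abundant miRNA of the NEXTflex libraries, had 646036 CPM in A-549 and 276264 in ES-2, a log2 difference of 1.23 (adjusted p = 0.000253, limma). Like miR-31-5p it was highest in A-549, with 326321 CPM in MV3 and 335307 in PANC-1. Unlike miR-31-5p, it stayed abundant in Hep-G2 (178119 CPM) and BE(2)-C (12604 CPM). miR-34a-5p, a target of the tumour suppressor p53, had 267 CPM in A-549, 2.02 in ES-2, 0 in MV3 and 67.6 in PANC-1. The difference between A-549 and ES-2 was 6.70 (adjusted p = 5.79e-05, limma), and miR-34a-5p was lower in BE(2)-C (0.665 CPM) than in Hep-G2 (60.0 CPM) by -5.32 (adjusted p = 7.32e-05, limma). miR-335-5p had 160 CPM in A-549 and 2.59 in ES-2, a difference of 5.49 (adjusted p = 5.97e-05, limma), and 734 CPM in PANC-1.

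The epithelial list is led by the miR-200 family, which represses ZEB1 and ZEB2. Of it, miR-200a-3p, miR-200b-3p and miR-429 were higher in A-549 and Hep-G2, lines at the opposite ends of the miR-31-5p levels in CPM. miR-200c-3p differed less, with 47.9 CPM in A-549, 79.6 in Hep-G2 and 38.1 in ES-2. miR-203a-3p went the other way, with 20.0 CPM in BE(2)-C and 12.9 in PANC-1, against 1.89 in A-549 and 0.579 in Hep-G2. miR-141-3p was highest in ES-2 (4.50 CPM), and miR-205-5p was at most 1.94 CPM in any library. Of 7 listed, 5 were tested, 5 were called over the 6 lines (99.3% of all tested) and 3 over the NEXTflex lines (85.4%). Between A-549 and ES-2, 3 were higher in A-549 and 0 in ES-2 (23.6% and 26.9% of all tested), and between A-549 and MV3, 4 and 0 (20.0% and 37.4%). Between ES-2 and MV3, 0 and 1 were called (8.97% and 23.8%), and between BE(2)-C and Hep-G2, 1 was higher in the former and 4 in the latter (74.7% and 8.24%). miR-200b-3p had 813 CPM in A-549, 6.74 in ES-2, 19.8 in MV3, 93.2 in PANC-1, 8.50 in BE(2)-C and 1248 in Hep-G2. Its log2 difference was 6.73 (adjusted p = 3.79e-06, limma) between A-549 and ES-2 and -7.05 (adjusted p = 3.45e-07, limma) between BE(2)-C and Hep-G2.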

How the data were processed

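Small RNA libraries of 6 untreated cell lines were compared, grouped by the cell line label. The authors deposited 1 table per line with 2813 rows. The values deposited for PANC-1 are CPM, and those for the other lines are a scaled signal, CPM divided by a factor set by the authors within each table. The submitters' processing notes name cutadapt 1.14, Bowtie2 2.3.2, SAMtools 1.5, featureCounts 1.5.3, edgeR 3.30.3 and the build hg38, and parameters are not given in the sources used here. All nonzero values (100% in each library, tolerance 0.01) were whole multiples of the value of 1 read, so whole reads were recovered, summed per mature name and rescaled to CPM. The tables had been normalized separately, and tests were therefore made on this CPM.

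Tests used log2(CPM + 1) of miRNAs whose mean reached 10 CPM in some line, and were run in limma 3.58.1 (R 4.3.3) with the line as factor, trended eBayes, two-sided contrasts and a Benjamini-Hochberg threshold of 0.05. edgeR 4.0.16 and DESeq2 1.42.0 were run on the recovered reads as alternatives. PANC-1 was compared in F tests only and had no contrast of its own, but its library also entered the filter and the fit behind the contrasts. The fits were tested on simulated data. Shares have Wilson intervals and levels exact Poisson intervals (95%). The members, lists and tests were chosen with earlier results of these data known. Named miRNAs are the members, the 10 most like hsa-miR-31-5p by Pearson r, those within 25 Mb of MIR31, those sharing its seed, 2 lists (metastasis-linked and epithelial) and the 5 hairpins nearest in level. Names given for the largest gap between preparations and for the difference of the BE(2)-C replicates were chosen after their values were seen. p-values measure differences against the spread between cultures of the same line. That spread was pooled over all lines in the fit with 2 libraries, and is not that of the compared lines alone.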

Additional observations from a re-analysis of the deposited data

How the results depend on the processing

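The levels of the members are relative values, and with another scaling 10 line means moved by over 1 SD of the replicates and 4 PANC-1 values left their counting interval. With TMM factors, hsa-miR-31-5p had 2067 CPM in ES-2, 2765 in MV3, 1451 in PANC-1 and 2.40 in Hep-G2, and hsa-miR-31-3p had 16.1 in MV3 and 3.26 in PANC-1. Without the most abundant miRNA in the total, hsa-miR-31-5p had 25027 CPM in A-549, 3773 in ES-2, 7591 in MV3, 3851 in PANC-1 and 1.75 in Hep-G2, and hsa-miR-31-3p had 90.2 in A-549, 44.2 in MV3 and 8.64 in PANC-1. Of the 10 miRNAs named as most like it, 2 were shared with Spearman's rho and 6 with TMM factors. Without BE(2)-C replicate 1, an alternative chosen after seeing the data, the gap of 507-fold between the preparations became 5178-fold, and the pooled folds over BE(2)-C became 58257 (A-549) and 16741 (PANC-1).

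Without the filter, 837 miRNAs were called by the F test over 6 lines and 691 between BE(2)-C and Hep-G2, because more were tested. With the filter at 100 CPM, 313 and 285 were called, and 230 over the NEXTflex lines. The other counts stayed within 1.5 times of those first given. Between BE(2)-C and Hep-G2, log2 differences turned with TMM factors, edgeR and DESeq2 for hsa-miR-101-3p (from 2.70 to -0.31, -0.55 and -0.45), hsa-miR-103a-3p (from 2.13 to -0.87, -1.04 and -1.002) and hsa-miR-107 (from 2.69 to -0.25, -0.21 and -0.20), and the cause was not tested. Of 16 contrasts of single miRNAs, 9 held their call and direction in all settings. Replicate numbers did not pair the libraries (r of -0.05 to 0.11 over 10 pairs of lines, 1 over 0.1). With a replicate block, 535, 363, 274, 308, 175 and 451 miRNAs were called in the 2 F tests and the 4 contrasts, against 542, 387, 276, 313, 179 and 453. Depth limited the 3p arm, with 14 to 90 reads in each NEXTflex library, and the 5p arm in the Novogene libraries, with 1 to 38 reads.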
